A study of Mus musculus with 2 samples.

Results

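The machinery that copies DNA was followed here through 39 genes, in cultured mouse bone marrow mononuclear cells with and without the herbal drug ninjin'yoeito (NYT). The members were taken by gene symbol, and all 39 had probes under that symbol, 53 probes in all, on an array of 30165 named genes. The 2 groups were an untreated control culture and a culture given NYT, each represented by 1 one-colour array. The cells were flushed from femurs of C57/Bl6J mice aged 2 to 4 months into medium with 2% serum, and RNA was taken on day 11. Neither the NYT dose nor the number of mice behind each culture is stated in the labels. With 1 array per group there was no spread between replicates and no test, so each value below describes these 2 arrays.

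A cell prepares each replication origin in G1 by loading the ring-shaped MCM2-7 helicase, with the help of ORC, CDC6 and CDT1. At the start of S phase the ring is joined by CDC45 and GINS, and polymerases alpha, epsilon and delta copy the strands while PCNA, its loader RFC, FEN1 and LIG1 serve and finish the lagging strand. Ribonucleotide reductase, thymidylate synthase and thymidine kinase supply the nucleotides, and E2F factors with cyclin E drive many of these genes at the G1/S transition. In bone marrow such genes are known to be high in dividing progenitors and low in mature blood cells.

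Intensity is the scanner software's processed brightness of a probe. The NYT array was the dimmer one over the gene probes: its 75th percentile stood at 728, that of the control array at 1475 (2.03 times higher). Differences are therefore given as log2 NYT minus control after each array was scaled to that percentile. The spike-in RNAs were not dimmer on NYT: the 8 well above background on both arrays had a median difference of 0.16 before scaling. Scaling to the percentile takes out any difference shared by all genes, and the cause of the dimmer gene signal was not tested. After scaling, the median difference of the 16996 genes measured on both arrays was 0.29, and without scaling it was -0.73, so each member is also read against that median. The scanner software's own error for a member's difference was 0.20 to 0.25 (median 0.20, log2), from 1 spot per probe on each array. It covers neither cultures nor hybridisations. Leukocyte markers bore out the labelled cell type, with 8 of 8 well above background on both arrays, including Ptprc, the CD45 antigen (intensity 9495 on control and 2429 on NYT), and Tyrobp, a myeloid signalling adaptor (218649 and 134679).

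Of the 39 genes, 37 were well above background on both arrays. Their median difference was -0.40, which was 0.69 below the median of all measured genes, and 27 of 37 lay below that median. Only 3 members were at least 2-fold lower, Pole, Mcm5 and Pola1, against 11.0% of all measured genes. Cdt1 alone was at least 2-fold higher, against 11.2% of all measured genes. At 1.5-fold, 13 members were lower and 7 higher, beside 16.9% and 30.4% of all measured genes. The shares of members past 2-fold were 8.11% lower and 2.70% higher, below those of all genes. For the lower direction this turned with the setting: 5 of 37 were 2-fold lower with quantile normalization (10.8% of all genes) and 8 of 37 after loess (14.0%), and the 13 of 37 at 1.5-fold were also a larger share than that of all genes. Under scaling to spike-in RNA all 37 members lay below 0, so a member called higher below is higher relative to the scaling used.

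**Figure D1:**
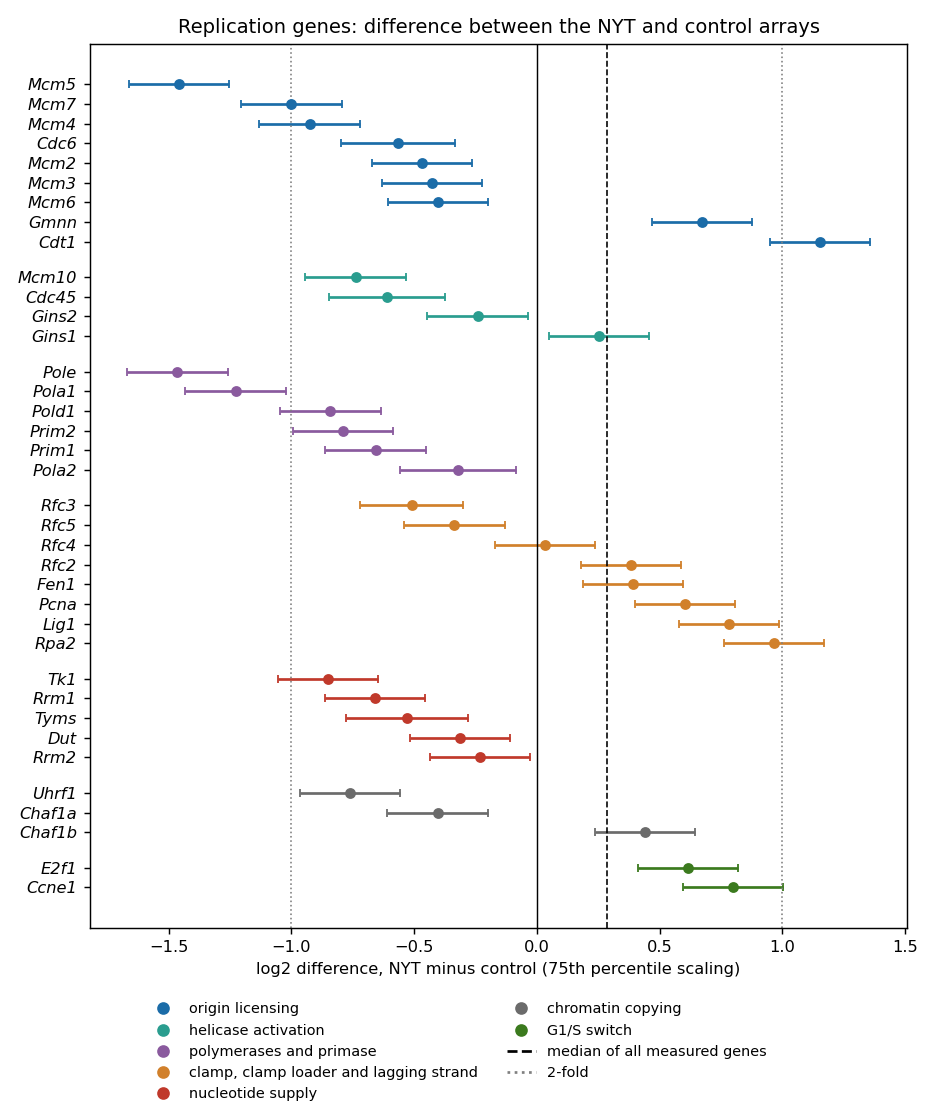
Log2 difference (NYT minus control, x axis) of the 37 members measured on both arrays, grouped by role; each point is 1 probe, bars are the scanner software's error, the dashed line is the median of all measured genes (0.29) and dotted lines mark 2-fold. All 6 polymerase and primase genes and all 5 nucleotide supply genes lie left of 0 (Pola2 and Tyms turn above it with normexp background correction), and Cdt1, Gmnn, Pcna, Lig1, Rpa2, E2f1 and Ccne1 lie right of the dashed line.

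The promoters of the members at both ends of this range are shown first, because E2F binding is the best known shared feature of replication genes. Of the 39 members, 31 had an entry in the RefSeq promoter table (build GRCm38.p6), which spans 250 bases before to 50 after a gene's start. Pole, the lowest member (-1.47), had none, nor did Mcm4, Prim2, Gmnn, Gins1, Gins2, Rfc2 and Ccne2. Below are the 250 bases before the start of the 2 lowest and the 2 highest members with an entry, written 5′ to 3′ on the gene's strand, with matches to the E2F motifs TTTCCCGC, TTTGGCGC or TTTCGCGC on either strand in capitals.
Mcm5 (chr8:75109259-75109508, plus strand, difference -1.46): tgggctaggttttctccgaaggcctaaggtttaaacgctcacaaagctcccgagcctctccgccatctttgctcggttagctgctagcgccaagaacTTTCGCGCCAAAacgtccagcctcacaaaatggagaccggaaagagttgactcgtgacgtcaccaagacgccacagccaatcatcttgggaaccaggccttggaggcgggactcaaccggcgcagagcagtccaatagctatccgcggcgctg
Pola1 (chrX:93632156-93632405, minus strand, difference -1.23): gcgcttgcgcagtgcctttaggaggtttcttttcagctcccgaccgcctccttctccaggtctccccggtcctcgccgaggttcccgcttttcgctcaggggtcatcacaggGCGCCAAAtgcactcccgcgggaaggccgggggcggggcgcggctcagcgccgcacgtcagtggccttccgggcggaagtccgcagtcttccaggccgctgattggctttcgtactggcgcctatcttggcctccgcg
Rpa2 (chr4:132768110-132768359, plus strand, difference 0.96): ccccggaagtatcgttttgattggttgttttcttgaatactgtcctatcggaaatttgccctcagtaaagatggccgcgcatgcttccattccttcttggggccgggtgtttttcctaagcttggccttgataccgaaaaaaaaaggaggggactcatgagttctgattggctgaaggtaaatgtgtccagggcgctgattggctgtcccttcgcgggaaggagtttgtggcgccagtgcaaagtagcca
Cdt1 (chr8:122567765-122568014, plus strand, difference 1.15): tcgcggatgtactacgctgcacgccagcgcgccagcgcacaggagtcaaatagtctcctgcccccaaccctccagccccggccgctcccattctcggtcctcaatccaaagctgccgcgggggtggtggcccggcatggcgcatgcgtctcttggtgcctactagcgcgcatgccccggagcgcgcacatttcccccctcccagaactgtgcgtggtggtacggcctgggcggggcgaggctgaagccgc
In Mcm5, TTTCGCGC and the reverse complement of TTTGGCGC share bases, so the capitals form 1 block of 12. Pola1 had 1 match, and Rpa2 and Cdt1 had no exact match in the bases printed. Cdt1 had 1 match to TTTGGCGC beginning 33 bases after the start, outside the stretch shown.

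Over the whole window of 300 bases, 12 of 31 members with an entry held at least 1 of the 3 motifs. By window, that was 12 of 36 (33.3%) for the members and 606 of 32851 (1.84%) for all promoters in the table. The windows of the members were also richer in G and C, at 59.8% against 53.8%. The members with a match were Cdc6, Cdt1, Lig1, Mcm3, Mcm5, Mcm6, Mcm7, Orc1, Pola1, Pold1, Rfc3 and Uhrf1. Mcm6 had 3 matches, beginning 110, 106 and 47 bases before the start. Among members measured on both arrays, the 11 with a match had a median difference of -0.57 and ran from -1.46 to 1.15. The 19 without one had a median of -0.32 and ran from -0.85 to 0.96. Mcm5, Pola1, Mcm7 and Cdt1, all with a match, lay outside the range of those without one. Pole, lower than all of these, has no entry and is in neither group. A part of the motifs in the differences was not tested. The CCAAT box, bound by NF-Y, stood in 19 of 36 member windows (52.8%) and in 37.4% of all windows. A match is a run of letters and not a measured binding site. Only exact copies of the 3 motifs were counted, so a member without a match may still hold a variant of them.

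The licensing genes lay on both sides of 0. All 6 subunits of the MCM2-7 ring were lower on the NYT array and below the median of all genes, with a median difference of -0.70. Mcm5 had an intensity of 4119.55 in the control and 740.3 with NYT, a difference of -1.46 ± 0.20 (scanner error) or 2.75-fold after scaling. Mcm7 went from 5768 on control to 1424 on NYT (-0.9998, just short of 2-fold). Mcm4 went from 6438 to 1673 (-0.93). These 3 subunits were set apart from Mcm2 (1809 and 646, -0.47), Mcm3 (9405 and 3453, -0.43) and Mcm6 (20501 and 7651, -0.40), although their products assemble in equal numbers. The gap between Mcm6 and Mcm5 was 1.05 on the log2 scale, against a scanner error of 0.29 for the gap. The probe for Mcm5 lies on chromosome 8 at 77651350 to 77651410, plus strand (mm9, as the files give it). The other probe for Mcm3 gave -0.40, which differed from the first by less than the error. The 2 probes overlap on chromosome 1 (20793136 to 20793195 and 20793119 to 20793178, mm9), so they are not independent readings.

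Cdt1, the factor that brings the ring to the origin, was the member with the highest difference. Its intensity was 6791 in the control and 7459 with NYT, so it was the only member brighter on NYT before scaling (0.14), and after scaling it stood at 1.15 ± 0.20 or 2.22-fold higher. Scaling to the spike-in RNAs turned it to -0.025. Its probe lies on chromosome 8 at 125096893 to 125096952, plus strand (mm9). Gmnn, which encodes geminin, the protein that binds CDT1 and blocks a second round of loading, had intensities of 960.1 and 756 and a difference of 0.67. The inhibitor and its target thus lay on the same side, with a gap of 0.48 and a scanner error of 0.29. Over the settings that measured both, that gap ran from 0.25, within the error, to 0.50. Cdc6, the ATPase that loads the ring together with CDT1, lay on the other side, with 189.6 on control and 63.2 on NYT (-0.57), and its dimmer second probe gave -1.10. Orc1, the largest subunit of the origin recognition complex, was well above background on the control array only (39.9 against 18.8), a bound of at least 1.03-fold lower. Between Cdt1 and Mcm5 the gap was 2.61 (scanner error 0.29), and it ranged from 2.43 to 2.61 over the main analysis and the 12 alternative settings.

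Genes that turn the loaded ring into a working helicase were lower or close to 0, none by 2-fold. Mcm10, which takes part in starting the helicase, had 1018 on control and 302 on NYT (-0.74). Cdc45, a fixed part of the moving helicase, had 170.0 and 55.0 (-0.61, but 0.049 with normexp background correction). The GINS subunits lay higher, with Gins2 at 652 and 273 (-0.24) and Gins1 at 838 and 493 (0.25). All 4 of these genes were below the median of all genes, Gins1 by only 0.03.

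The polymerases and primase were the role group with the lowest median (-0.82), and 6 of 6 were lower on the NYT array, except that Pola2 turned to 0.21 with normexp background correction. Pole, the catalytic subunit of the leading-strand polymerase epsilon, had 1517 on control and 271 on NYT (-1.47 ± 0.20, 2.76-fold lower). Its probe lies on chromosome 5 at 110766375 to 110766434, plus strand (mm9), and its other probes were not well above background on the NYT array. Pola1, the catalytic subunit of polymerase alpha, had 1313 and 277 (-1.23 ± 0.20, 2.34-fold lower), from a probe on chromosome X at 90550189 to 90550248, minus strand (mm9). Pold1, the catalytic subunit of the lagging-strand polymerase delta, had 3730.0 and 1028 (-0.84). Prim2 and Prim1, the subunits of primase, had 1172 and 335 (-0.79) and 2204 and 690.0 (-0.66). Pola2, the regulatory subunit that ties primase to polymerase alpha, was dim and nearest to 0 of the 6 (144 and 57.0, -0.32). Its gap to Pola1 was 0.91, against a scanner error of 0.31.

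Genes of the sliding clamp, its loader and the lagging strand lay higher than the polymerases and primase, with a median of 0.39. That was near the 0.29 of all measured genes, and 5 of 8 lay above it, Rfc2 and Fen1 by only 0.10 and 0.11. Pcna, the clamp, had 27307 on control and 20468 on NYT (0.60). Lig1, the ligase that seals Okazaki fragments, had 7012 and 5948 (0.78), and Fen1, which trims their flaps, had 8317 and 5387 (0.39). Rpa2, a subunit of the single-strand binding protein, was nearly equal on both arrays before scaling (665 and 640.3), which became 0.96 after it. The loader subunits did not lie together. Rfc2 stood at 0.38 (6319 and 4074) and Rfc4 at 0.03 (2309 and 1167), whereas Rfc5 stood at -0.34 (4438 and 1736) and Rfc3 at -0.51 (411 and 143). The gap between Rfc2 and Rfc3 was 0.89 (scanner error 0.29), and it fell to 0.57 in other settings. Second probes gave 0.46 for Rfc4 and -0.62 for Rfc5. Pcna and Pole, whose products act at the same fork, lay 2.07 apart in their differences (scanner error 0.29), and at least 1.65 apart over the settings.

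**Figure D2:**
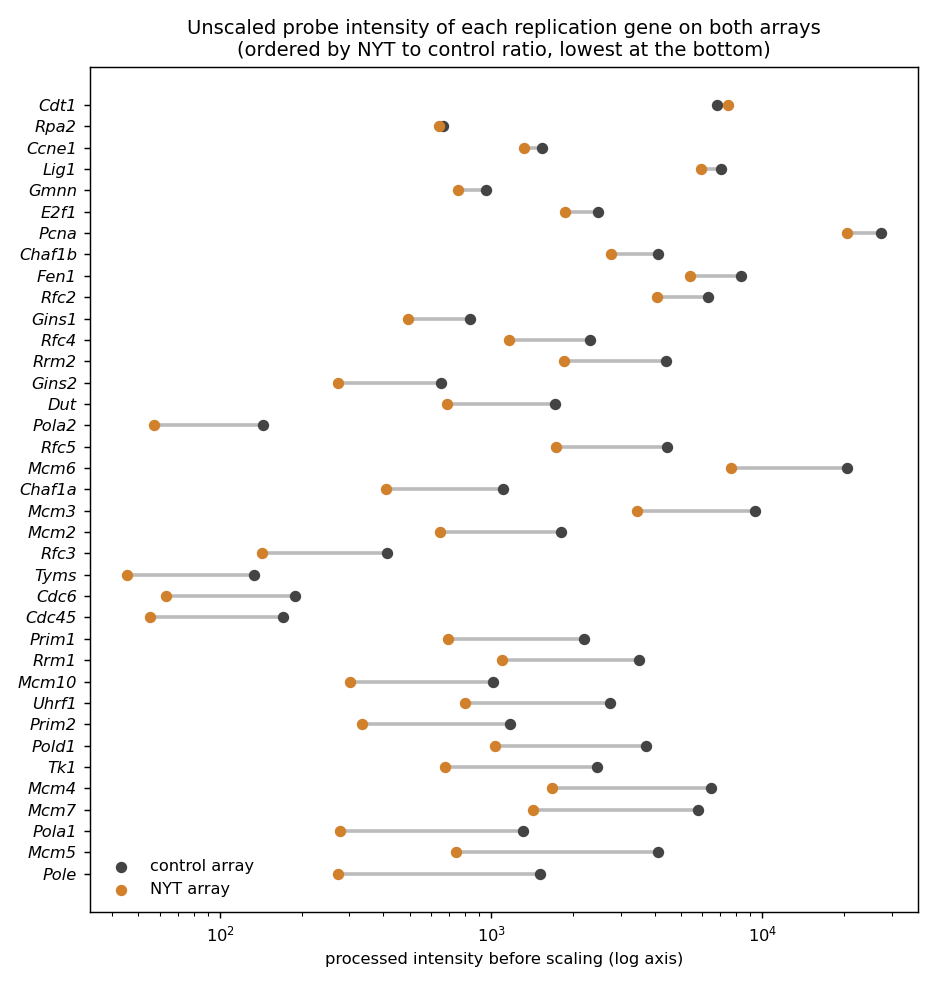
Processed intensity before scaling (log axis) of the 37 members on the control array (dark) and the NYT array (orange), ordered by their ratio. The NYT point lies left of the control point for 36 genes, and Cdt1 at the top is the exception (6791 and 7459).

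All 5 nucleotide supply genes were lower, none by 2-fold, except that Tyms turned to 0.076 with normexp background correction. Tk1, the thymidine kinase that salvages thymidine in S phase, had 2459 on control and 673 on NYT (-0.85), and its second measured probe gave -1.12, past 2-fold. Rrm1, the large subunit of ribonucleotide reductase, had 3493 and 1091 (-0.66), and Rrm2, its S-phase partner, 4405 and 1850.1 (-0.23). The gap between both subunits was 0.43, with a scanner error of 0.29. Tyms, which makes thymidylate, was dim (133 and 45.5, -0.53). Dut, which removes dUTP, had 1721 and 684 (-0.31).

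Chromatin copying genes were mixed. Uhrf1, which recruits the maintenance methyltransferase to newly copied DNA, had 2745 and 799 (-0.76) by its brighter probe and 0.11 by a dim one. The subunits of CAF-1, which deposits histones behind the fork, lay on opposite sides of 0, with Chaf1a at -0.40 (1101 and 411) and Chaf1b at 0.44 (4108 and 2753, and 0.53 by another probe). Their gap was 0.85 (scanner error 0.29). The G1/S regulators were above the median of all genes. E2f1, a transcription factor that activates replication genes, had 2475 and 1871 (0.61), and Ccne1, cyclin E1, had 1544 and 1325 (0.80), but 0.01 by its dim second probe. Ccne2, cyclin E2, was below the detection flag on both arrays (5.62 and 4.10). In all, 8 members had more than 1 measured probe, of which 1 (Uhrf1) disagreed in sign and 2 (Cdc6 and Tk1) in the 2-fold call.

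Without any scaling, 36 of the 37 members were lower on the NYT array and 25 of them at least 2-fold, when 36.4% of all measured genes were. None was 2-fold higher, beside 1.24% of all measured genes. After loess between the arrays none was 2-fold higher either, beside 5.55% of all measured genes. The signs of the members above 0 therefore rest on the scaling. Set against the median of all genes under the same setting, 26 members lay below it in each setting that measured them, of the main analysis and 12 alternatives. Cdt1, Gmnn, Pcna, Rpa2, Lig1, E2f1 and Ccne1 lay above it in each. Gins1, Rfc2, Fen1 and Chaf1b fell on both sides. Settings that subtract 1 constant per array leave this reading as it is by construction.

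**Figure D3:**
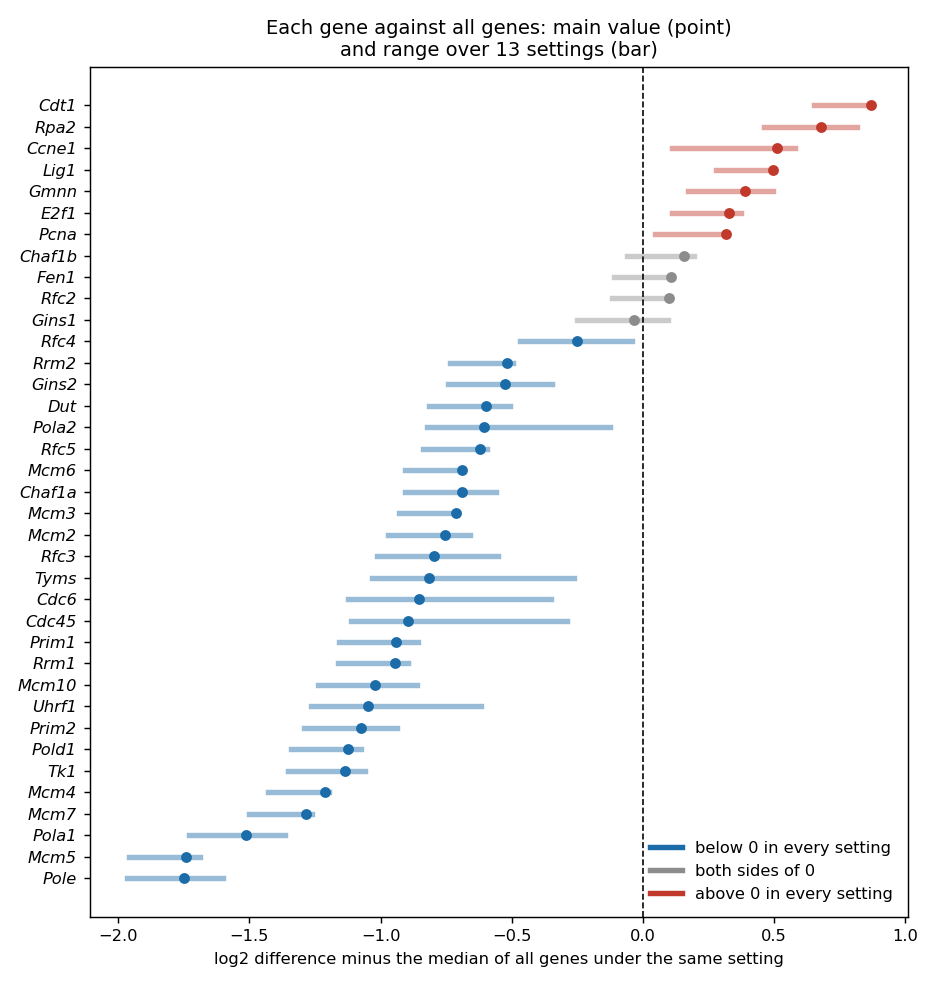
Difference of each member minus the median of all genes under the same setting (x axis, log2); points are the main analysis and bars span up to 13 settings. Blue members stay below 0, red members above 0, and the 4 grey members cross it; Cdt1 runs from 0.65 to 0.87 and Mcm5 from -1.96 to -1.69.

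Further replication and nucleotide synthesis genes, listed with earlier results known, had medians nearer to that of all genes, but no smaller shares below it. Of 50 further replication genes, 49 were measured, with a median of -0.13. At least 2-fold lower were 3 (6.12%) and higher 1 (2.04%), fewer than the 11.0% and 11.2% of all measured genes. The lower ones were Ticrr, which helps load CDC45 (459 and 80.3, -1.50), Asf1b, a histone chaperone (3938 and 808, -1.27), and Esco2, which acetylates cohesin (133 and 28.3, -1.22). Chtf8, part of an alternative clamp loader, was higher (16253 and 22096, 1.46). Below the median of all genes lay 41 of these 49 (83.7%), against 27 of 37 members (73.0%), and Cdc7, a kinase that fires origins, was well above background on the NYT array only.

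Of 33 further nucleotide synthesis genes, all were measured, with a median of 0.05, and 25 (75.8%) lay below the median of all genes. By 2-fold, 2 were lower (6.06%) and 3 higher (9.09%), also fewer than the 11.0% and 11.2% of all measured genes. Samhd1, which breaks down deoxynucleotides, stood at -1.39 (39128 and 7390, between -1.65 and -0.73 over 3 probes), and Dck, deoxycytidine kinase, at -1.25 (561 and 117). Mthfd2, a mitochondrial enzyme of one-carbon supply, stood at 2.83 (579 and 2031, 7.10-fold higher). Nme2, a nucleoside diphosphate kinase, was at 1.20 (69957 and 79157) and Impdh1, of guanine nucleotide synthesis, at 1.03 (2878 and 2893). These 3 were brighter on the NYT array even before scaling, Impdh1 by very little.

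The G1/S control list of 30 genes, all measured, had a median of -0.38, close to that of the members (-0.40). Past 2-fold, 5 were lower (16.7%) and 2 higher (6.67%), beside 11.0% and 11.2% of all measured genes. Below the median of all genes lay 19 of 30 (63.3%), against 27 of 37 members (73.0%). Mycn, a growth-promoting transcription factor, was lowest (728 and 24.9, -3.85). The E2F family was divided, with E2f8 at -1.57 and E2f2 at -1.42. The other members of that family, named after their values were seen, were E2f3 (0.72), E2f4 (0.45), E2f5 (0.77) and E2f6 (0.68), near E2f1, and E2f7, whose probes gave -0.996 and 0.83. Cdkn2d, a CDK inhibitor, was at -1.26 and Ccna2, cyclin A2, at -1.09. Cdk6 (1.17) and Cdk4 (1.06, but as low as 0.22 by another of its 3 probes), the kinases of cyclin D, were higher.

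The mitosis genes, which act after replication, had a lower median (-0.93) than the 39 members (-0.40). At least 2-fold lower were 13 of 30 measured mitosis genes (43.3%) and none was higher, beside 11.0% and 11.2% of all measured genes. Of the 30, 29 (96.7%) lay below the median of all genes, against 27 of 37 (73.0%) of the members. The lowest were Ccnb2, cyclin B2 (-1.59), Cenpa, the centromere histone (-1.47), Top2a (-1.34), Cdc20 (-1.32), Mki67 (-1.24) and Plk1 (-1.20). Pttg1, securin, was the only one above that median, at 0.34 by its brightest probe and -0.33 by another. Ttk was well above background on control only, and Aurkb and Cenpf on neither array. The difference between the lists has no test, since genes are not replicates.

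**Figure D4:**
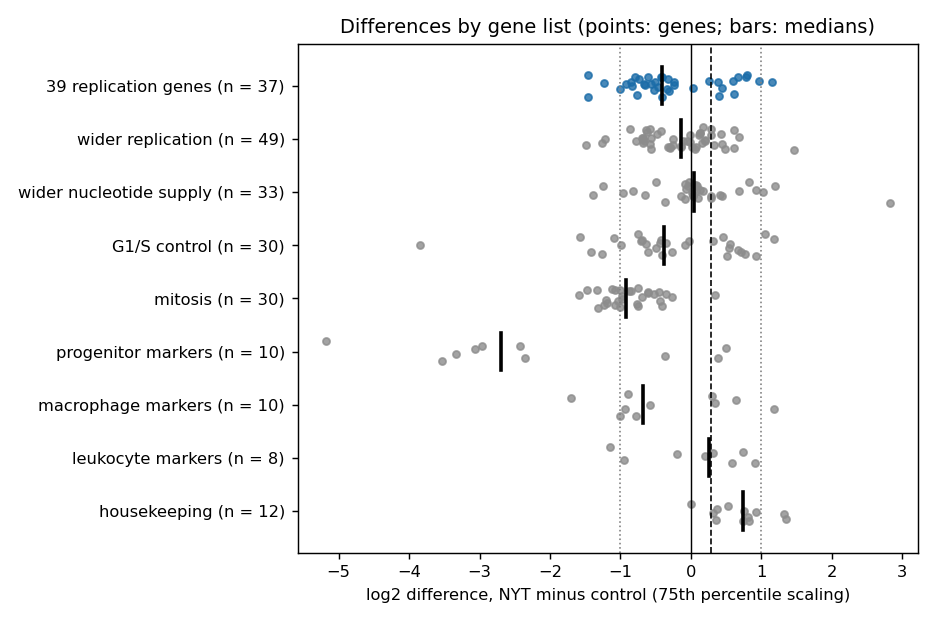
Log2 difference (NYT minus control) of each measured gene by list; points are genes, thick bars medians, the dashed line the median of all measured genes and dotted lines 2-fold. The members spread from -1.47 to 1.15 around -0.40, above the mitosis genes (-0.93) and the progenitor markers (-2.70).

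Markers of several cell types also differed between the arrays. Their counts stand beside 11.0% of all measured genes at least 2-fold lower and 11.2% higher. Of 10 progenitor markers, 7 were at least 2-fold lower and none higher, with a median of -2.70, and their summed intensity, here in units of each array's 75th percentile, was 67.4 on control and 29.3 on NYT. Kit, the stem cell factor receptor, had 3102 and 153, and Gata2 3251 and 44.2, while Flt3 (0.50) and Cd48 (0.39) were not lower. Of 8 mast cell and basophil markers, 6 were measured, all at least 2-fold lower, Fcer1a and Ms4a2 were well above background on control only, and the sum was 51.3 on control and 1.26 on NYT. Of 8 neutrophil markers, 7 were 2-fold lower (sum 735 and 311). Of the T and NK cell markers, 4 of 5 measured were 2-fold lower (sum 24.3 and 7.40), with Cd8b1, Klrd1 and Gzmb on control only. For B cells it was 3 of 8 (sum 70.0 and 22.5), and for stromal cells 3 of 5 with 1 higher (sum 18.5 and 6.31), with Lum, Postn and Pdgfra on control only. For erythroid cells it was 3 of 6 with 1 higher (sum 95.4 and 86.1), with Klf1 not well above background on either. Macrophage markers were mixed, with 2 of 10 lower, 1 higher (Cd68, 1.18), a median of -0.68 and a sum that was higher on NYT (568 and 695). The leukocyte list had 1 of 8 lower, a median of 0.26 and likewise a higher sum on NYT (395 and 467). On this scale the sum of the members was 101 on control and 108 on NYT, although their median was -0.40. Such a sum is weighted to the brightest probes, and Pcna, the brightest member on both arrays, had a difference of 0.60. The sum of 12 housekeeping genes, with a median of 0.75, was 1109 and 1889. Before scaling, the sums of the macrophage, leukocyte, housekeeping and member lists were lower on NYT (149746 and 78731 for the members). In such mixed cultures, fewer cells of a type and less RNA per cell cannot be told apart, and the part of cell type in the members' values was not tested.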

How the data were processed

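Gene expression was measured on 2 one-colour arrays, 1 per group, which lay on 1 slide. The authors deposited the scanner's intensity for every spot, where the file headers name version 10.7.1.1 of Agilent's extraction software and the submitters' processing notes 9.5.1.1. That software detrended each array by itself, per the file headers, with no scaling between arrays. The flags used were also deposited by the authors. Their value table, an intensity on a linear scale, had equal sorted values (relative tolerance 1e-06) for 39073 of 39429 probes, as quantile normalization gives. No label states how that table was made.

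Control spots and outlier spots (258 on control, 165 on NYT) were left out, and no spot was saturated. Log2 intensities were averaged per probe and scaled to each array's 75th percentile. A probe was measured when more than 50% of its spots were well above background on both arrays (62.2% of probes on control and 57.7% on NYT were well above). A gene's value is its brightest measured probe. Where only the control array detected a gene, the bound sets its value against the higher of the lowest signal well above background on NYT and the probe's own. Probes were named through RefSeq tables of GRCm38.p6 (26761 by accession, 3814 by symbol, 639 by synonym, and 8215 kept the file's name); probe positions are those of the files, on mm9. Genes were counted at 2-fold, with no test.

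The members, the gene lists and the rules were chosen with earlier results of these data known, and a further list of DNA repair genes after seeing the values. All 39 members are reported, and of the pathway lists up to 6 genes in each direction past 2-fold are named. The alternatives were other scalings (quantile, median, none, loess, spike-in RNA), the authors' value table, normexp correction (offset 50), other filters, other probe rules and other thresholds. Counting was checked on simulated data with known changes well past 2-fold and noise below the scanner error. Such a check covers the code and not the precision of the counts. Tools were Python 3.11.15, pandas 2.3.3, R 4.3.3 and limma 3.58.1. Some single-gene values are not reported here. The number of arrays limits the precision.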

Additional observations from a re-analysis of the deposited data

Results flagged for a closer look

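One signal outside the genes differed between the arrays. The spike-in RNA E1A_r60_a107 was 2.25 higher (log2) on the NYT array before scaling, while the 7 others well above background on both arrays lay between -0.12 and 0.24. It is 1 of 8 spike-ins whose median set the spike-in scaling.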

How the results depend on the processing

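No paired analysis was possible because the design has only 1 array per group, which also leaves none to drop. Spike-in scaling and no scaling subtract a constant by construction, and the dim-probe filter changes which genes enter; the cause was not tested for the other changes given here. Members at least 2-fold lower numbered 5 with quantile normalization (10.8% of all genes), normexp correction (8.10%) or the authors' value table (10.66%), 25 without scaling (36.4%), 8 after loess (14.0%), 26 with spike-in scaling (44.0%), 1 among the brighter genes (7.37%), 0 at 3-fold (6.87%) and 13 at 1.5-fold (16.9%). Members at least 2-fold higher numbered 0 with spike-in scaling (0.98% of all genes), after loess (5.55%) and without scaling (1.24%). At other thresholds, 0 members were higher at 3-fold (2.98%) and 7 at 1.5-fold (30.4%). The median of the members was -1.58 with spike-in scaling, -1.42 without scaling and -0.69 after loess, when that of all genes was -0.89, -0.73 and -0.02. Relative to all genes the members' median moved from -0.69 to -0.91 with no filter on dim probes, and lay between -0.73 and -0.56 under the other settings. Further replication genes had medians of -1.15 without scaling, -1.31 with spike-in scaling and 0.094 among the brighter genes. Nucleotide synthesis genes had -1.13 with spike-in scaling, -0.97 without scaling and -0.21 after loess. G1/S control genes had -1.39 without scaling, -1.56 with spike-in scaling and 0.028 among the brighter genes. Mitosis genes had -2.10 with spike-in scaling, -1.94 without scaling and -1.13 after loess. Cdt1 turned to -0.025 with spike-in scaling. The other 11 members above 0 also fell below it there, and without scaling. With normexp correction Pola2 turned to 0.21, Tyms to 0.076 and Cdc45 to 0.049. Rfc4, at 0.03, fell below 0 also with quantile normalization, loess and the authors' value table. Over single members, 318 values stayed within the scanner error of the main value and 111 moved outside it. Much of both counts was fixed by construction. The filter and naming settings repeat the main value of a member, and no scaling and spike-in scaling move every member past the error. The tally is therefore no measure of robustness. The dim members (Cdc6, Cdc45, Pola2, Tyms and Orc1) are those limited most by signal over background.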

Other observations

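DNA repair genes that act on replicating chromosomes, a list of 25 chosen after the values above were seen, had a median of -0.56 over 23 measured genes. Of these, 5 were at least 2-fold lower and none higher, beside the 11.0% and 11.2% of all genes given above. Below the median of all genes lay 21 (91.3%). The Fanconi anaemia genes Fanca (1297 on control and 193 on NYT, -1.73) and Fanci (411 and 66.1, -1.62) were lowest. Rad54b and Xrcc3, of homologous recombination, stood at -1.22 and -1.07. Atm, a damage-sensing kinase, stood at -1.37 by its brightest probe and 0.02 by another. Chek1, a checkpoint kinase of S phase, was the highest of the list at 0.75, from a dim probe (30.4 on control and 25.2 on NYT, where the lowest signal well above background was 19.2). Brca1 did not reach the detection flag, and Fancd2 reached it on the control array only (at least 1.65-fold lower).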
